A study of Homo sapiens with 10 samples.

Results

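Levels of mRNA and of ribosome-protected fragments were followed for 6 genes of DNA repair and of the DNA damage response that are known targets of the transcription factor p53: DDB2, XPC, POLH, REV3L, RRM2B and GADD45A. They were found by gene symbol, and all 6 were present among the 11258 transcripts that both tables list, with 1 transcript each. The cells were BJ cells, human fibroblasts made immortal with telomerase (hTERT), which control and treated cells alike carried, so that the values describe 1 cell line. The groups were a control and cells kept in nutlin-3a for 2, 4, 6 or 19 h, each profiled by RNA-Seq of poly(A) RNA and by Ribo-Seq, which sequences the stretches of mRNA that ribosomes protect. Each of the 10 libraries was the only one of its group, so the data hold no replicate spread and no p-value is given. The 4 treated libraries of an assay were all compared with the same control library, and their changes therefore share its error.

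Nutlin-3a occupies the pocket of MDM2 that binds p53, and p53 then accumulates without damage to DNA. Among the genes that p53 switches on are several that act on damaged DNA. DDB2 and XPC find lesions for nucleotide excision repair, the pathway that cuts out ultraviolet photoproducts and other bulky adducts. POLH encodes DNA polymerase eta and REV3L the catalytic subunit of DNA polymerase zeta, which copy past lesions that stop the replicative polymerases. RRM2B encodes p53R2, a small subunit of ribonucleotide reductase that supplies deoxyribonucleotides outside S phase, when its S-phase counterpart RRM2 is missing. GADD45A is a small stress protein that binds PCNA and CDK1 and acts in repair and in the arrest before mitosis.

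Promoter windows of 300 bases, from 250 bases before to 50 bases after an annotated start, were taken from RefSeq (GRCh38.p14). They covered 4 of the 6 genes, DDB2, XPC, POLH and REV3L, with 6 windows in all. No window of RRM2B or GADD45A was part of the search, which therefore says nothing about their promoters. The windows were searched on both strands for the p53 response element, taken as 2 consensus decamers of 10 bases that lie 0 to 13 bases apart, with the central bases of both intact and at most 3 mismatches elsewhere. Of the 6 windows, 1 held such an element, that of a DDB2 start. Its decamers matched the consensus without mismatch, were separated by 1 base and took up positions 6 to 26, with the start as position 1. It was also the only 1 of the 6 windows with a decamer that matches exactly, which 6.63% of all windows held. An element with at most 3 mismatches was present in 4.49% of all 35116 windows, and an element without mismatch in 10 windows, 0.0285%. The window of DDB2 at chr11:47214724-47215023, plus strand, is shown because it holds this element, with the decamers in capitals. That of XPC at chr3:14178552-14178851, minus strand, and that of POLH at chr6:43575935-43576234, plus strand, are shown beside it, as genes that were also higher after nutlin-3a and in whose windows the search found none. The other DDB2 window and both REV3L windows held none either. A match describes the letters only, and its absence says nothing beyond these windows.
DDB2: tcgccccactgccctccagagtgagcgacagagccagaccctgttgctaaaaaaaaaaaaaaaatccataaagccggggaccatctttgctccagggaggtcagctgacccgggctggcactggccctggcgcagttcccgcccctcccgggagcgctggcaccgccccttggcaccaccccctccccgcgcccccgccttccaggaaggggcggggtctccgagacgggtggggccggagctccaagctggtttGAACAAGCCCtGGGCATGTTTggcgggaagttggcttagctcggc
XPC: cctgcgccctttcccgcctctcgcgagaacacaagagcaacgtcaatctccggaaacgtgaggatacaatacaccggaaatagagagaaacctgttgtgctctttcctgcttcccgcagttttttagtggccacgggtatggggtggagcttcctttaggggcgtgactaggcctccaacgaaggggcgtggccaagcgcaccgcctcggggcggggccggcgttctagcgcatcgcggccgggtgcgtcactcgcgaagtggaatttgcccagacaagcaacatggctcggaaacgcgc
POLH: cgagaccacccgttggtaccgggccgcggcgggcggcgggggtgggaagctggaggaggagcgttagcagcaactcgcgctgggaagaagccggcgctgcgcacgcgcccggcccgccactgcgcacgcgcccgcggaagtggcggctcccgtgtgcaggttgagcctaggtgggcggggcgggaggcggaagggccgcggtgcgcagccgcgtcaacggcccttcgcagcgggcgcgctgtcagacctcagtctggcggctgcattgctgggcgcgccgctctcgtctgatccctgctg

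The known p53 targets CDKN1A, which encodes the cell cycle inhibitor p21, and MDM2 were used to check the treatment. CDKN1A was at 68.6 FPKM (fragments per transcript length and library size) in the RNA-Seq control and at 212, 915, 1204 and 1316 FPKM at 2, 4, 6 and 19 h, which is 19.2-fold the control at the last time. MDM2 rose in the same libraries from 14.9 to 36.3, 203, 254 and 259 FPKM. All 11 fibroblast markers were present, at 13.8 to 4337 FPKM, whereas the markers of epithelial, leukocyte, endothelial and melanocyte cells that the RNA-Seq table lists did not exceed 1.07 FPKM. The totals by which FPKM were scaled were 23845561 to 27554290 reads in RNA-Seq and 7744900 to 14460726 in Ribo-Seq. These figures were worked out from the steps between low FPKM values and are not all reads sequenced. Reads per gene were recovered in the same way, and the errors below are standard errors (SE) of the log2 change from these reads, which cover counting error only.

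**Figure D1:**
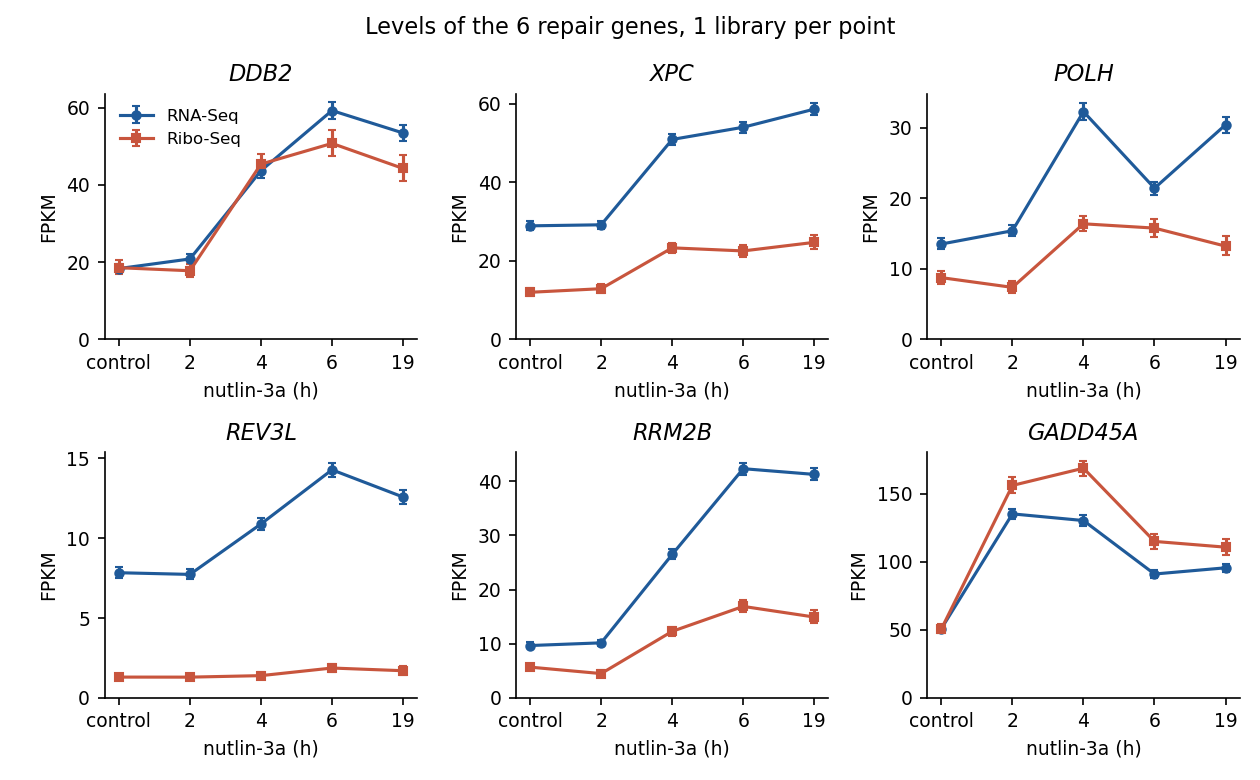
Level of each of the 6 genes in FPKM, on a linear axis from 0, in the control and at 2, 4, 6 and 19 h of nutlin-3a. Circles are RNA-Seq and squares Ribo-Seq, each a single library, and bars are 95% counting intervals. GADD45A is near its highest level at 2 h already, whereas the RNA of the other 5 genes is within 1.14-fold of the control at 2 h and higher from 4 h on.

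Before treatment the 6 genes differed in level. Per length of transcript, GADD45A had the most RNA, at 50.9 FPKM, followed by XPC at 28.9, DDB2 at 18.3, POLH at 13.5, RRM2B at 9.66 and REV3L at 7.84 FPKM. REV3L has the longest transcript, of 10789 nucleotides, and was the only gene of the 6 that stayed below 5 FPKM in every Ribo-Seq library. It therefore failed the filter that defined the 7015 genes of the background, which asked for 5 FPKM or more in some RNA-Seq and some Ribo-Seq library. The other 5 were above 5 FPKM in both control libraries and so did not depend on the treatment to pass it.

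DDB2, the damage sensor that binds ultraviolet lesions as a partner of DDB1, rose from 4 h on in both assays. Its RNA was at 18.3 FPKM in the control and at 20.8, 43.7, 59.3 and 53.5 FPKM after 2, 4, 6 and 19 h. Its ribosome density, the Ribo-Seq level, was 18.6, 17.8, 45.4, 50.8 and 44.3 FPKM in the same order. Both series were close to the control at 2 h and highest at 6 h. The log2 change in RNA was 1.25 ± 0.060 (SE) at 4 h, 1.69 ± 0.057 at 6 h and 1.54 ± 0.058 at 19 h, and that in ribosome density 1.29 ± 0.083, 1.45 ± 0.086 and 1.25 ± 0.092. The step in RNA from 6 to 19 h, of -0.15 ± 0.039 on the log2 scale, was larger than counting error. DDB1, which forms the DDB complex with DDB2 and is the adaptor of its ubiquitin ligase, was at 91.3 FPKM in the control RNA and at 111 FPKM at 19 h, under the 2-fold limit. The level of DDB2 RNA relative to that of DDB1 was therefore 0.201 in the control and 0.48 at 19 h, with 95% counting intervals of 0.187 to 0.216 and 0.46 to 0.501.

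XPC, which recognises the distorted helix and recruits the repair machinery, was the steadier of the nucleotide excision repair pair. Its RNA was at 28.9, 29.2, 50.9, 54.0 and 58.6 FPKM in the control and at 2, 4, 6 and 19 h, and its ribosome density at 11.98, 12.9, 23.3, 22.5 and 24.7 FPKM. All 3 later libraries of each assay were above both earlier ones. XPC passed 2-fold only at 19 h, with a log2 change of 1.02 ± 0.034 in RNA and of 1.04 ± 0.082 in ribosome density. Both of these counting intervals include 1, the 2-fold limit, as do those of ribosome density at 4 and 6 h (0.96 ± 0.074 and 0.91 ± 0.079), so that for XPC the side of the limit is not settled by the reads. RAD23B and CETN2, with which XPC forms a complex, had log2 changes of -0.28 and 0.24 in RNA at 19 h. The level of XPC RNA relative to RAD23B was 0.358 in the control and 0.885 at 19 h, and that relative to CETN2 1.13 and 1.94.

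POLH, the polymerase that copies correctly past ultraviolet dimers, was highest at 4 h. Its RNA was at 13.5 FPKM in the control and at 15.4, 32.3, 21.4 and 30.4 FPKM at 2, 4, 6 and 19 h. The 6 h library stood below both its neighbours, with a step of -0.59 ± 0.042 from 4 to 6 h and of 0.51 ± 0.042 from 6 to 19 h on the log2 scale. Ribosome density did not follow this dip, at 8.74, 7.36, 16.4, 15.8 and 13.2 FPKM, and its step from 4 to 6 h, of -0.055 ± 0.079, was within counting error. POLH was more than 2-fold higher in RNA at 4 and 19 h, with log2 changes of 1.26 ± 0.051 and 1.17 ± 0.051, and at no time in ribosome density, where the largest change was 0.91 ± 0.091 at 4 h. The counting intervals of its ribosome density at 4 and 6 h, 0.73 to 1.08 and 0.66 to 1.04, include the 2-fold limit. RAD18, the ubiquitin ligase that marks PCNA and so brings POLH to stalled forks, fell from 13.6 to 4.17 FPKM in RNA at 19 h. POLH and RAD18 had about the same RNA level in the control (ratio 0.992, 95% counting interval 0.922 to 1.07), and POLH was at 7.29 times the level of RAD18 at 19 h.

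REV3L showed the smallest changes of the 6 at 4 and 19 h in both assays. Its RNA was at 7.84, 7.74, 10.9, 14.3 and 12.6 FPKM in the control and at 2, 4, 6 and 19 h. Its ribosome density was at 1.30 FPKM in the control and in the treated libraries between 1.30 and 1.87 FPKM, from 142 to 217 reads per treated library. The RNA was beyond counting error from 4 h on, with log2 changes of 0.47 ± 0.042, 0.87 ± 0.039 and 0.68 ± 0.040, and did not reach 2-fold. The ribosome density was beyond counting error at 6 and 19 h, at 0.52 ± 0.15 and 0.39 ± 0.17, and not at 4 h, where it was 0.098 ± 0.15. MAD2L2, the accessory subunit REV7 of the same polymerase, moved the other way, from 41.3 FPKM in the control RNA to 15.1 FPKM at 19 h, and from 61.8 to 13.8 FPKM in ribosome density. The RNA of REV3L was at 0.19 times the level of MAD2L2 in the control and at 0.834 times at 19 h. POLI, POLK and REV1, other translesion polymerases, did not pass the filter, and their log2 changes in RNA at 19 h were 0.42, -0.31 and -0.21.

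RRM2B had the largest change in RNA of the 6 at 4, 6 and 19 h. Its RNA was at 9.66 FPKM in the control and at 10.2, 26.5, 42.3 and 41.3 FPKM after 2, 4, 6 and 19 h. Its ribosome density was at 5.67, 4.48, 12.3, 16.9 and 14.9 FPKM. In both assays the levels at 4, 6 and 19 h lay above the control and the 2 h library, and the RNA at 6 and 19 h did not differ beyond counting error (-0.036 ± 0.028). The log2 change in RNA was 1.46 ± 0.050 at 4 h, 2.13 ± 0.047 at 6 h and 2.10 ± 0.047 at 19 h, or 4.27-fold at the last time. That in ribosome density was smaller, at 1.11 ± 0.093, 1.57 ± 0.094 and 1.4 ± 0.10, with a counting interval at 4 h of 0.93 to 1.30 that includes the 2-fold limit.

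The other subunits of ribonucleotide reductase went down while RRM2B went up. RRM2, the small subunit of dividing cells, was at 109, 105, 71.4, 8.38 and 1.78 FPKM in RNA and at 136, 142, 106, 10.5 and 1.93 FPKM in ribosome density. RRM1, the large catalytic subunit that pairs with either small one, was at 77.3, 67.8, 58.1, 27.6 and 15.9 FPKM in RNA. The order of the small subunits was thereby turned between 4 and 6 h. RRM2B RNA was at 0.0884 times the level of RRM2 in the control (95% counting interval 0.0831 to 0.094), at 0.371 times at 4 h, at 5.05 times at 6 h (4.7 to 5.43) and at 23.2 times at 19 h (19.9 to 27.1). In ribosome density the same ratio went from 0.0418 in the control to 1.61 at 6 h and 7.72 at 19 h, the last with an interval of 5.85 to 10.2 from the 55 reads of RRM2. Where whole-transcript lengths were used, a ribosome density ratio between genes can also hold their non-coding shares, which these intervals do not cover. RRM2B also passed RRM1, with an RNA ratio of 0.125 in the control and of 2.6 at 19 h. In bulk libraries fewer cells that hold a transcript, such as cells in S phase, and less of it per cell cannot be told apart.

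**Figure D2:**
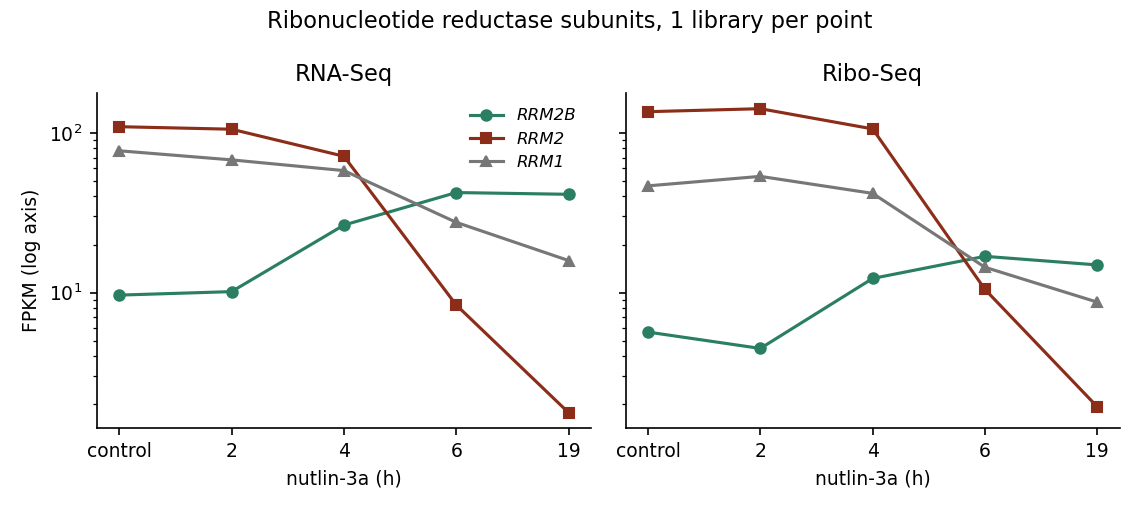
Levels of the small subunits RRM2B (circles) and RRM2 (squares) and of the large subunit RRM1 (triangles) of ribonucleotide reductase, in FPKM on a log axis, by time of nutlin-3a, with RNA-Seq on the left and Ribo-Seq on the right, 1 library per point. The lines of RRM2B and RRM2 cross between 4 and 6 h in both assays.

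GADD45A differed from the other 5 in its timing. Its RNA was at 50.9 FPKM in the control and at 135, 130.2, 90.9 and 95.5 FPKM after 2, 4, 6 and 19 h, and its ribosome density at 50.6, 156, 169, 115 and 111 FPKM. The levels at 2 and 4 h were the highest in both assays and those at 6 and 19 h lay between them and the control. Its log2 change in RNA was 1.41 ± 0.039 at 2 h and 1.36 ± 0.040 at 4 h, and under 2-fold later, at 0.84 ± 0.041 and 0.91 ± 0.041. In ribosome density it exceeded 2-fold at every time, with 1.62 ± 0.056, 1.74 ± 0.054, 1.18 ± 0.060 and 1.13 ± 0.063. Its paralog GADD45B, another stress-induced member of the family, was at least 2-fold higher at 2 h and under 2-fold later, with RNA at 25.2, 90.9, 33.8, 21.5 and 19.7 FPKM and log2 changes at 4 h of 0.43 in RNA and 0.71 in ribosome density. GADD45A RNA was at 1.49 times the level of GADD45B at 2 h and at 4.85 times at 19 h. CDK1 and CCNB1, the mitotic kinase and the cyclin that it needs and the pair that GADD45A inhibits, fell in RNA at 19 h, from 49.5 to 0.946 FPKM and from 92.8 to 3.56 FPKM, and PCNA was at a log2 change of -0.51.

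Counted over all 6 genes, 1 gene (GADD45A) was at least 2-fold higher in RNA at 2 h. The later libraries of 4, 6 and 19 h held 4, 2 (DDB2 and RRM2B) and 4 such genes. Of the 7015 background genes, 0.927%, 1.41%, 1.753% and 2.49% were that much higher at these times. In ribosome density 1, 3, 3 and 4 of the 6 were at least 2-fold higher, against 2.12%, 2.58%, 5.26% and 6.22% of the background. None of the 6 was 2-fold lower at any time in either assay. Of the background at most 7.10% were that much lower in RNA and 14.9% in ribosome density, both at 19 h, so none among 6 genes is near these shares. With a limit set by the local spread of all changes, none of the 5 genes past the filter passed in ribosome density at 19 h. The genes were taken for being p53 targets, so these shares describe them and are not a test. The median log2 change of the 6 in RNA was 0.13, 1.25, 0.88 and 1.10 at the 4 times, where that of the background was -0.045, -0.074, -0.0024 and -0.067. At 19 h RRM2B ranked 28, DDB2 65, POLH 119, XPC 171 and GADD45A 205 among the 7015 genes by change in RNA. By change in ribosome density they ranked 202, 263, 1028, 395 and 333.

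**Figure D3:**
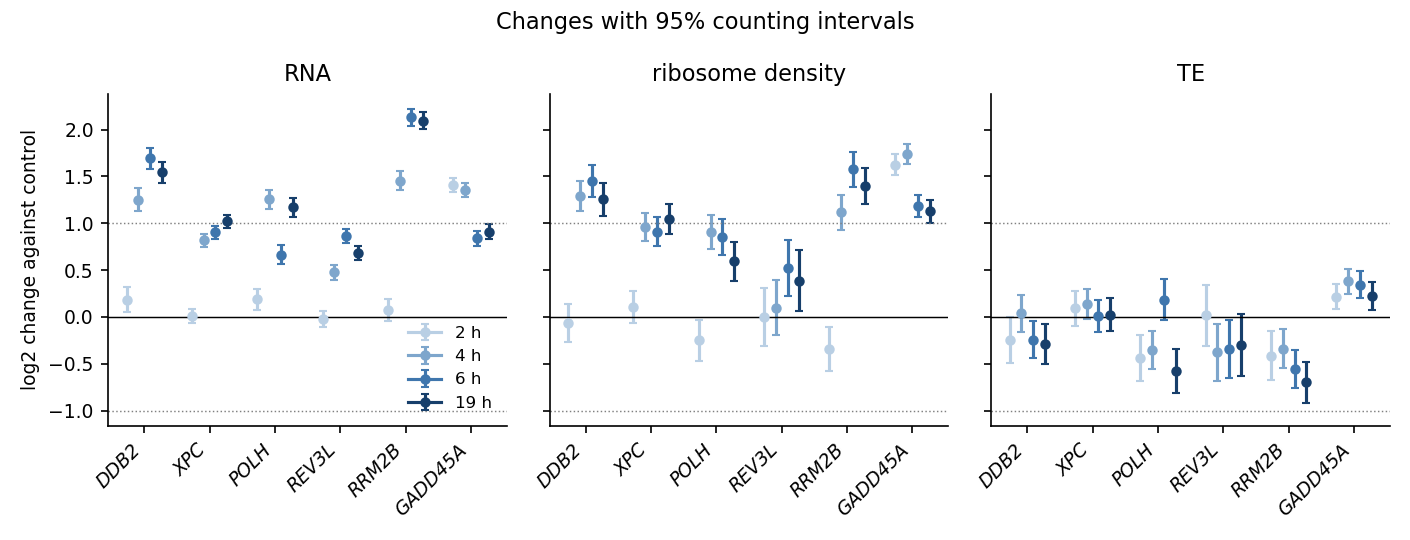
Log2 change against the control library of the same assay in RNA, ribosome density and translation efficiency (TE) for each of the 6 genes at 2, 4, 6 and 19 h, from light to dark. Bars are 95% counting intervals, and dotted lines mark a 2-fold change. At 2 h GADD45A stands alone above the line, and no TE point lies beyond either line.

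TE was the log2 ratio of ribosome density to RNA level at the same time. No TE change of the 6 genes reached 2-fold, at times when 1.20% (2 h), 0.998% (4 h), 5.74% (6 h) and 6.14% (19 h) of the background did so in either direction. RRM2B had a lower TE in all 4 treated libraries, with changes of -0.41 ± 0.13, -0.34 ± 0.11, -0.56 ± 0.10 and -0.70 ± 0.11. The ribosome density of RRM2B rose less than the mRNA itself, 2.63-fold against 4.27-fold at 19 h. GADD45A had a higher TE in all 4, at 0.22 ± 0.068, 0.38 ± 0.067, 0.35 ± 0.072 and 0.22 ± 0.075. Of the background, 56.5%, 73.3%, 50.2% and 44.4% were above the control in TE at these times. Among the 7015 genes GADD45A ranked 1963, 1691, 1777 and 1932 from the highest, so rises of this size were common. POLH had -0.44, -0.35 and -0.58 at 2, 4 and 19 h and 0.19 ± 0.11 at 6 h, the time of its low RNA library. The changes of DDB2 lay between -0.29 and 0.037, beyond counting error at all times but 4 h, and those of REV3L between -0.38 and 0.016. XPC stayed within counting error at every time, between 0.0080 and 0.14. The median TE change of the background was 0.18 at 4 h, and relative to it the values at 4 h were -0.52 for RRM2B, -0.53 for POLH and 0.20 for GADD45A, whereas those of DDB2 and XPC changed sign, from 0.037 to -0.14 and from 0.14 to -0.036. In ribosome density the background median was 0.10 at 4 h and -0.19 at 19 h, and relative to it the 6 genes kept their sign at 19 h, whereas at 4 h REV3L changed from 0.098 to -0.0048.

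The level of TE also differed among the 6 genes. In the control it was -0.0079 for GADD45A, 0.018 for DDB2, -0.63 for POLH, -0.77 for RRM2B, -1.27 for XPC and -2.59 for REV3L on the log2 scale, where the background median was -0.27. REV3L was lower than all but 0.157% to 0.513% of the background genes in each library. That background left out genes that, like REV3L, stayed below 5 FPKM in every Ribo-Seq library. The low place of REV3L was thus in part set by the filter. RRM2B, which passed the filter, went from the percentile of 27.4 in the control to that of 10 at 19 h. For 5 of the 6 genes the same length was recovered from each table, and for REV3L from the Ribo-Seq table and from both together, though not from RNA-Seq alone. Where whole-transcript lengths were used for both assays, a TE level compared between genes can also hold the share of each transcript that is not coding, and its part in the order was not tested. In a change over time in 1 gene the length itself cancels. The study lists shares of coding reads that differ between its control and nutlin-3a Ribo-Seq libraries. If reads outside the coding sequence were counted, such a difference can enter a change in ribosome density or TE, which was not tested.

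Genes of the same and of neighbouring repair pathways were counted beside the 6. Of the other genes of nucleotide excision repair, 21 passed the filter, and none was 2-fold higher and 3 were 2-fold lower in RNA at 19 h. These 3 were RPA1, RPA2 and RPA3, the subunits of the single-strand binding protein shared with replication, at -1.31, -1.14 and -1.70. Of 11 genes of translesion synthesis none was higher and 5 were lower, led by POLD3 (-2.31), USP1 (-2.28) and RAD18 (-1.71), of which USP1 removes the ubiquitin mark from PCNA that RAD18 sets. Of 9 genes of ribonucleotide reductase and nucleotide supply none was higher and 7 were lower, led by RRM2 (-5.94), RRM1 (-2.28) and DCK (-1.98), the deoxycytidine kinase. The background shares at 19 h were 7.10% at least 2-fold lower in RNA and 14.9% in ribosome density, and 2.49% and 6.22% at least 2-fold higher. In ribosome density 5, 6 and 6 genes of these lists were lower and none higher.

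The lists of other repair pathways held no gene that was 2-fold higher in RNA at 19 h either. As 2.49% of the background was that much higher, none in lists of this size is near the background share. Of 19 genes of base excision repair 5 were lower, with FEN1, the flap nuclease of replication, at -4.15 and PARP2 at -2.14, while NEIL3 fell below the floor, from 7.18 to 0.032 FPKM. Of 4 genes of mismatch repair 2 were lower, among them MSH6, from 34.9 to 8.92 FPKM. Of 6 genes of non-homologous end joining 1 was lower, PRKDC, the DNA-dependent protein kinase, at -1.30, and of 3 genes of direct reversal none, MGMT among them at 0.19. The median change in RNA at 19 h was -0.16 over nucleotide excision repair, -0.997 over translesion synthesis, -1.52 over nucleotide supply, -0.46 over base excision repair, -1.30 over mismatch repair, -0.64 over end joining and -0.29 over direct reversal, beside -0.067 over the background. Every one of the 6 p53 targets, at 0.68 to 2.10, lay above the highest of the tested genes of these 7 lists, ERCC5, the nuclease XPG of excision repair, at 0.50.

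**Figure D4:**
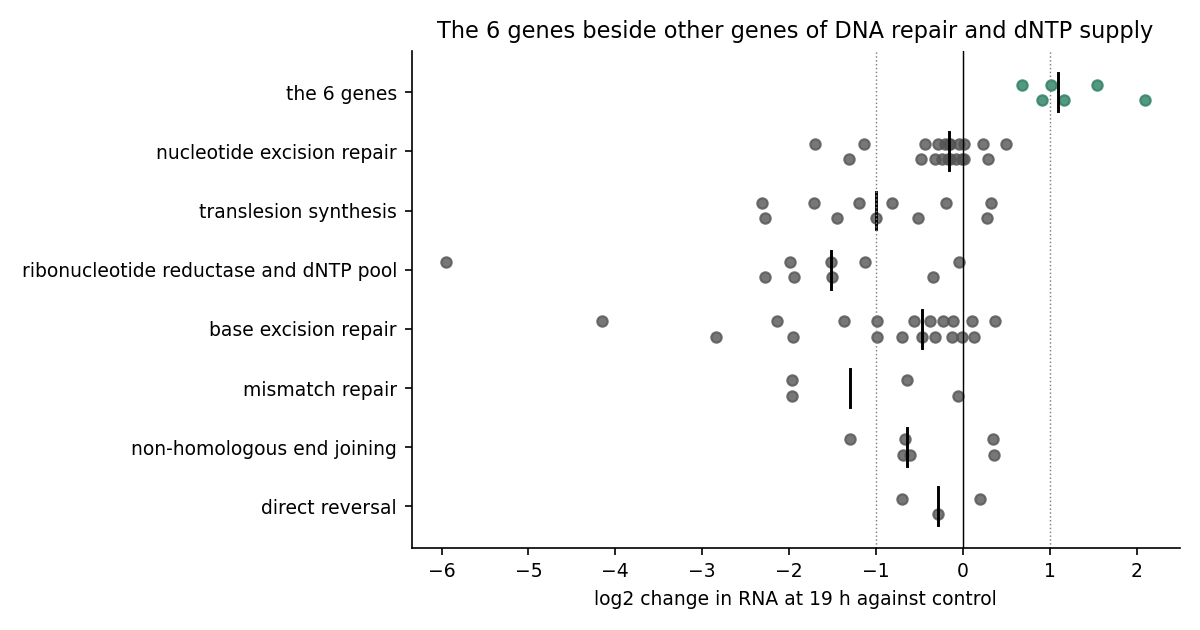
Log2 change in RNA at 19 h against the control for the 6 genes (top row) and for the other tested genes of 7 lists of DNA repair and nucleotide supply, 1 point per gene and 1 library per group. Short bars are medians and dotted lines mark a 2-fold change. The 6 genes lie between 0.68 and 2.10, to the right of every gene in the lists.

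The time courses of the 6 genes were compared with those of all background genes by the root mean square difference over 8 log2 changes, those in RNA and in ribosome density at the 4 times. Among the 6, XPC and POLH were closest to each other (0.28), followed by DDB2 and RRM2B (0.29), and RRM2B and GADD45A farthest apart (1.08). Outside the 6, the nearest genes to DDB2 were ANKRA2 (0.22), PSTPIP2 (0.22) and NUPR1 (0.23). For XPC they were CSDA (0.15), ARID3A (0.17) and THSD1 (0.18), and for POLH STOM (0.22), DRAM1 (0.22) and ARID3A (0.25). For RRM2B they were ACTA2 (0.25), ANKRA2 (0.29) and FBXO22 (0.30). GADD45A was nearest to GEM, a small GTPase (0.25), CEBPB, a transcription factor of stress and inflammation (0.27), and HMOX1, heme oxygenase (0.36), which were likewise high at 2 and 4 h, with RNA changes at 2 h of 1.37, 1.11 and 1.11. REV3L was nearest to PPAPDC1A (0.12), QPCT (0.14) and ALDH1L2 (0.14). These distances describe 10 libraries, with the control of each assay entering every change.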

How the data were processed

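RNA-Seq of poly(A) RNA and Ribo-Seq were analysed in 10 libraries of BJ cells, 1 for each assay and time, grouped by the sample labels. The authors' alignment, by Bowtie, was to 1 protein-coding transcript per gene and kept unique hits, so reads shared by paralogs such as RRM2 and RRM2B are missing. The build given in the submitters' processing notes is hg19. The authors deposited FPKM with 3 decimals, in 2 tables whose headers name no assay. One is named for Ribo-Seq alone. The other is named for both assays, holds a single column per time and was read as RNA-Seq, and every RNA and TE value rests on this reading. The methods describe Ribo-Seq levels from coding reads, but 87.4% of 9197 transcripts had the same length in both tables, and whether reads outside the coding sequence are part of the Ribo-Seq values was not settled.

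FPKM below 1 were set to 1, and each library was set against the control of its assay as a log2 ratio. A change was called at 2-fold. The background was the 7015 genes that reached 5 FPKM in 1 or more libraries of both assays. Reads, lengths and totals were recovered from the spacing of FPKM values for 99.8% of transcripts, after a check on simulated data, and gave counting errors (1.96 SE for 95%). Beside the 6 genes, CDKN1A, MDM2, direct partners, the up to 3 largest rises and falls of each pathway list in RNA at 19 h and the 3 genes of most like time course were named. ERCC5 and MGMT were named after their values were seen. Some genes that this rule names are not reported here. The genes, lists and tests were chosen with earlier results of these data known. The study describes an effect of sequencing run, and the runs of these libraries were not used here. Other floors, scalings, baselines, cut-offs and filters were tried. Python 3.11.15, numpy 2.4.6, pandas 2.3.3 and matplotlib 3.10.9 were used.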

Additional observations from a re-analysis of the deposited data

Results flagged for a closer look

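POLH and RRM2B had a ribosome density below the control at 2 h and above it later, each beyond the counting interval. The log2 change of POLH was -0.25 ± 0.11 (SE) at 2 h and 0.91 ± 0.091 at 4 h, and that of RRM2B was -0.34 ± 0.12 at 2 h and 1.57 ± 0.094 at 6 h. In RNA the same genes were at 0.19 and 0.073 at 2 h. Among the 7015 background genes, POLH ranked 1325 and RRM2B 837 from the lowest by change in ribosome density at 2 h. Falls of this size were thus not rare in that library, although they exceeded counting error. The later rises ranked 242 from the highest for POLH at 4 h and 109 for RRM2B at 6 h. With 1 library per time the difference between times was not tested against replicates.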

How the results depend on the processing

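The counts of genes at least 2-fold changed stayed the same, or within 1.5 times, in 106 of 117 comparisons with an alternative. These include the comparisons in TE, where the main count was 0 at every time, so the share overstates how firm the other counts are. Requiring a mean of 20 FPKM in each assay left 2 of the 6 genes, DDB2 and GADD45A, and gave 2, 1 and 1 higher in RNA at 4, 6 and 19 h and 2 in ribosome density at 19 h. Among the 5 genes past the filter, a limit of 1.5-fold gave 5 in RNA at 6 h, 5 in ribosome density at 4 h and at 6 h, and 1 in TE at 19 h (RRM2B). REV3L, outside the filter, was at 1.82-fold in RNA at 6 h. A limit that slides with the local spread of genes of like level gave 5 in ribosome density at 4 h and 0 at 19 h. The shares of the background past the 1.5-fold and the sliding limit are not given here, so these counts describe the genes alone. With the 2 h library as baseline 2 remained higher in ribosome density at 19 h, and GADD45A, already high at 2 h, changed sign, to -0.053, -0.57 and -0.50 in RNA at 4, 6 and 19 h and to -0.44 and -0.50 in ribosome density at 6 and 19 h. The log2 changes of single genes stayed within their counting interval in 284 of 342 comparisons and moved further in 58. The sign changed in 22 of the 342, of which 3 were changes of at least 2-fold, all of GADD45A with the 2 h baseline. No paired analysis was possible because each group was 1 library. Depth limits REV3L most, with 142 Ribo-Seq reads at 19 h.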

Other observations

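PRKDC and TP53BP1, which act in end joining and in the choice of that pathway, were picked after their values were seen. At 2 h the ribosome density of both was higher without a rise in RNA. At 6 and 19 h the ribosome density of PRKDC stayed above the control while its RNA fell, whereas TP53BP1 was higher in both assays. PRKDC was at 59.2, 58.4, 51.3, 30.8 and 24.1 FPKM in RNA in the control and at 2, 4, 6 and 19 h, and at 10.6, 30.1, 12.6, 15.6 and 13.2 FPKM in ribosome density. TP53BP1 was at 8.94, 13.8, 8.98, 16.3 and 15.8 FPKM in ribosome density, with the 2 h library above both its neighbours as for PRKDC, and at 19.1, 18.6, 16.9, 25.8 and 24.4 FPKM in RNA. Such a course was not particular to genes of repair. The fibroblast marker FN1 was at 147, 476, 220, 696 and 781 FPKM in ribosome density. Of the 11 fibroblast markers, 1, 0, 4 and 4 were at least 2-fold higher in ribosome density at the 4 times, and none in RNA. The background shares in ribosome density were 2.12%, 2.58%, 5.26% and 6.22%.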
